A study of Homo sapiens with 6 samples.

Results

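Clade B serpins are protease inhibitors that mostly stay inside the cell, and here their transcripts were followed after silencing of SDC1, the gene of the cell-surface proteoglycan syndecan-1. The family was taken as 10 listed genes, SERPINB1 to SERPINB9 and SERPINB13, read through array probe sets that the platform annotation ties to a single gene. Of these, 8 genes could be measured, with 21 probe sets, among 19775 genes tested. No single-gene probe set was named for SERPINB2 or SERPINB6, and both were not analysed here. The members were chosen by their log2 differences between SDC1 siRNA and control siRNA arrays, to set genes that fall strongly beside stable ones. The members' differences in that comparison are therefore given as a description and without p-values. Where a member is said to pass or miss the threshold of the fit, or an interval is given, that is description too and no test.

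The cells were MDA-MB-231, a triple-negative human breast cancer line in long use. They received either an siRNA (small interfering RNA) directed at SDC1 or a negative control siRNA, and 3 independent replicates of each group were hybridised to 6 Affymetrix arrays. Both groups are thus transfected cells of 1 line. The labels state neither the siRNA sequences nor the time from transfection to harvest, and untransfected cells were not analysed here. A fall after SDC1 siRNA therefore cannot be told apart from a rise after control siRNA. RNA came from whole cultures, so fewer cells expressing a gene and less RNA per cell cannot be told apart. Each value is a log2 expression value minus its probe set's median over the 6 arrays, so the values show differences between arrays but no levels.

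A serpin offers a protease a flexible reactive loop as bait. When the protease cuts the loop, the serpin snaps into a new shape and traps the enzyme in a covalent complex. The clade B members lack a classical secretion signal, sit in the cytosol and nucleus, and are known for shielding cells from their own or from incoming proteases of granules and lysosomes. The human genes lie in clusters on chromosomes 6 and 18. SERPINB3 and SERPINB4, the squamous cell carcinoma antigens, are near-identical neighbours and are common in squamous epithelium and in cancers arising from it.

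How alike that pair is can be seen in the sequence before their start sites, shown because probe sets and promoters of both genes are hard to tell apart. The 250 bases before each start, from RefSeq (GRCh38.p14, minus strand), are chr18:63644257-63644506 for SERPINB4 and chr18:63661894-63662143 for SERPINB3. They were identical at 98.8% of positions, and capitals mark the 3 bases that differ.
SERPINB4: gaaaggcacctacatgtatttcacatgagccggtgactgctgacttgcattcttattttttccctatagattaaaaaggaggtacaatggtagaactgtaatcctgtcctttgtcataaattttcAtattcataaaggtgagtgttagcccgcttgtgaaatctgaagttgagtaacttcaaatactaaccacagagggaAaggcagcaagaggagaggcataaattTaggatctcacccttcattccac
SERPINB3: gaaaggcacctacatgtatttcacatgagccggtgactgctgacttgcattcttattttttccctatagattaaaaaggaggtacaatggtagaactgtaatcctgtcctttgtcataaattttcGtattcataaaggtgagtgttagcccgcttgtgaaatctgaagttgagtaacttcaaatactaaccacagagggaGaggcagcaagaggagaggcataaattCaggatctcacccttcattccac
Counted from 1 at the 5′ end of the window, with the SERPINB4 base first, the differences are A126G, A201G and T228C. The next most alike pair of members, SERPINB7 and SERPINB13, matched at 33.6% of positions without gaps, taking the lowest-coordinate window where a gene has several.

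SERPINB4, which inhibits chymotrypsin-like proteases such as cathepsin G and mast cell chymase, was the most strongly changed member. Its values were 1.39, 1.47 and 1.22 in control replicates 1 to 3 and -1.78, -1.86 and -1.22 in SDC1 siRNA replicates 1 to 3. All SDC1 siRNA arrays lay far below all control arrays, and SDC1 siRNA replicate 3 was the highest of its group. The log2 fold change was -2.98 (SE 0.16, n = 3 per group), which leaves 12.7% of the control transcript. Of all genes tested, 2 had a lower log2 fold change.

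SERPINB3, an inhibitor of papain-like cysteine proteases such as cathepsins L, K and S, fell as well but less far. Control arrays read 0.75, 0.75 and 0.57 and SDC1 siRNA arrays -0.57, -0.96 and -0.86. The groups did not overlap, with SDC1 siRNA replicate 1 nearest to the controls. The log2 fold change was -1.48 (SE 0.11, n = 3 per group), or 35.7% of control, and 77 genes had a lower one. A cross-hybridising probe set of SERPINB3, left out of the gene value, gave -1.08 (SE 0.10).

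The annotation ties a further probe set to both SERPINB3 and SERPINB4, and it read 0.99, 0.97 and 0.83 in control arrays and -1.10, -0.93 and -0.83 in SDC1 siRNA arrays. Its log2 fold change of -1.88 (SE 0.091) lies between those of the genes. How far the probe sets of each gene also catch the transcript of the other was not tested, so the sizes of the separate falls are uncertain.

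SERPINB7, or megsin, known from kidney mesangial cells and the upper epidermis, fell in each SDC1 siRNA array but to unequal degrees. Control arrays were tightly grouped at 0.37, 0.35 and 0.40, while SDC1 siRNA arrays read -0.91, -1.05 and -0.35. Replicate 3 thus stood well above the other SDC1 siRNA arrays and still below every control. The log2 fold change was -1.14 (SE 0.16, n = 3 per group), or 45.3% of control. SERPINB7 has a single probe set.

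SERPINB8, which inhibits the proprotein convertase furin, fell by 0.82 on the log2 scale (SE 0.093, n = 3 per group) on its bright probe set, to 56.6% of control. Control arrays read 0.29, 0.38 and 0.58 and SDC1 siRNA arrays -0.38, -0.54 and -0.29, with no overlap. Its dimmer probe set moved the other way, from -0.07, -0.12 and -0.01 in control arrays to 0.05, 0.01 and 0.16, a difference of 0.14 (SE 0.075) that did not pass the threshold. The fall of SERPINB8 therefore rests on 1 of its 2 probe sets, and with both averaged the log2 fold change was -0.34 (SE 0.074). Reading the brightness classes on all 6 arrays also gave -0.34, so which of its probe sets is the brighter is uncertain.

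SERPINB9, the inhibitor of granzyme B that protects cells from cytotoxic granules, came closest to these without passing the threshold. Averaged over its 3 probe sets, control arrays read 0.07, 0.18 and 0.14 and SDC1 siRNA arrays -0.20, -0.016 and -0.014. The groups lay apart by a small margin, and the log2 fold change was -0.21 (SE 0.072, 95% interval -0.37 to -0.04). The probe sets disagreed. One read 0.16, 0.54 and 0.67 in control arrays against -0.37, -0.25 and -0.16, a fall of 0.72 on the log2 scale (SE 0.13). The others were at -0.03 (SE 0.081) and 0.12 (SE 0.14), with overlapping groups.

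**Figure D1:**
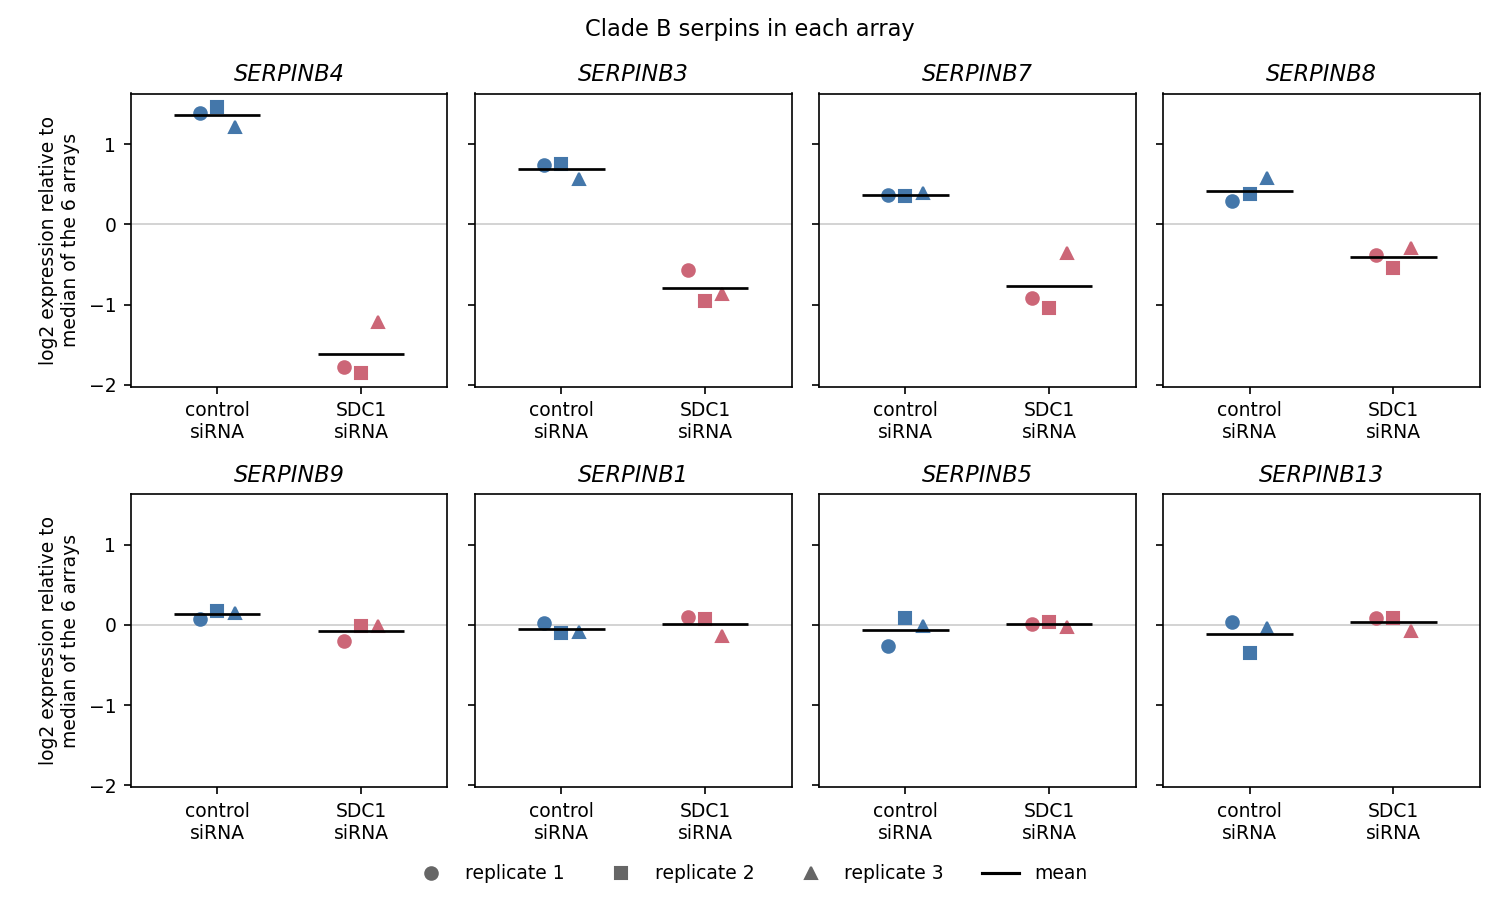
Log2 expression relative to the median of the 6 arrays for the 8 measured clade B serpins, ordered by fold change, in control siRNA and SDC1 siRNA arrays (points, shaped by replicate number, lines at group means). SERPINB4, SERPINB3, SERPINB7 and SERPINB8 separate by group, SERPINB9 does so narrowly, and SERPINB1, SERPINB5 and SERPINB13 overlap.

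The other members showed small differences with overlapping groups. SERPINB1, which inhibits the neutrophil proteases elastase, cathepsin G and proteinase 3, read 0.03, -0.10 and -0.09 in control arrays and 0.10, 0.08 and -0.14 in SDC1 siRNA arrays. Its log2 fold change was 0.07 (SE 0.081, 95% interval -0.12 to 0.25). Of its 4 probe sets, 3 lay between -0.06 and -0.01, and the fourth gave 0.28 (SE 0.11) with overlapping groups.

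SERPINB5, or maspin, an epithelial tumour suppressor that does not trap proteases, read -0.26, 0.08 and -0.02 in control arrays and 0.02, 0.04 and -0.03 in SDC1 siRNA arrays. Its log2 fold change was 0.07 (SE 0.090, 95% interval -0.13 to 0.28), and its dimmer probe set gave 0.02 (SE 0.099). SERPINB13, or headpin, an inhibitor of cathepsins L and K in squamous epithelium, read 0.03, -0.34 and -0.03 against 0.09, 0.09 and -0.07. The log2 fold change was 0.15 (SE 0.10, 95% interval -0.09 to 0.39). Its other 5 probe sets, all in the dimmest class, ranged from -0.17 to 0.04. A dim probe set can understate a change.

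**Figure D2:**
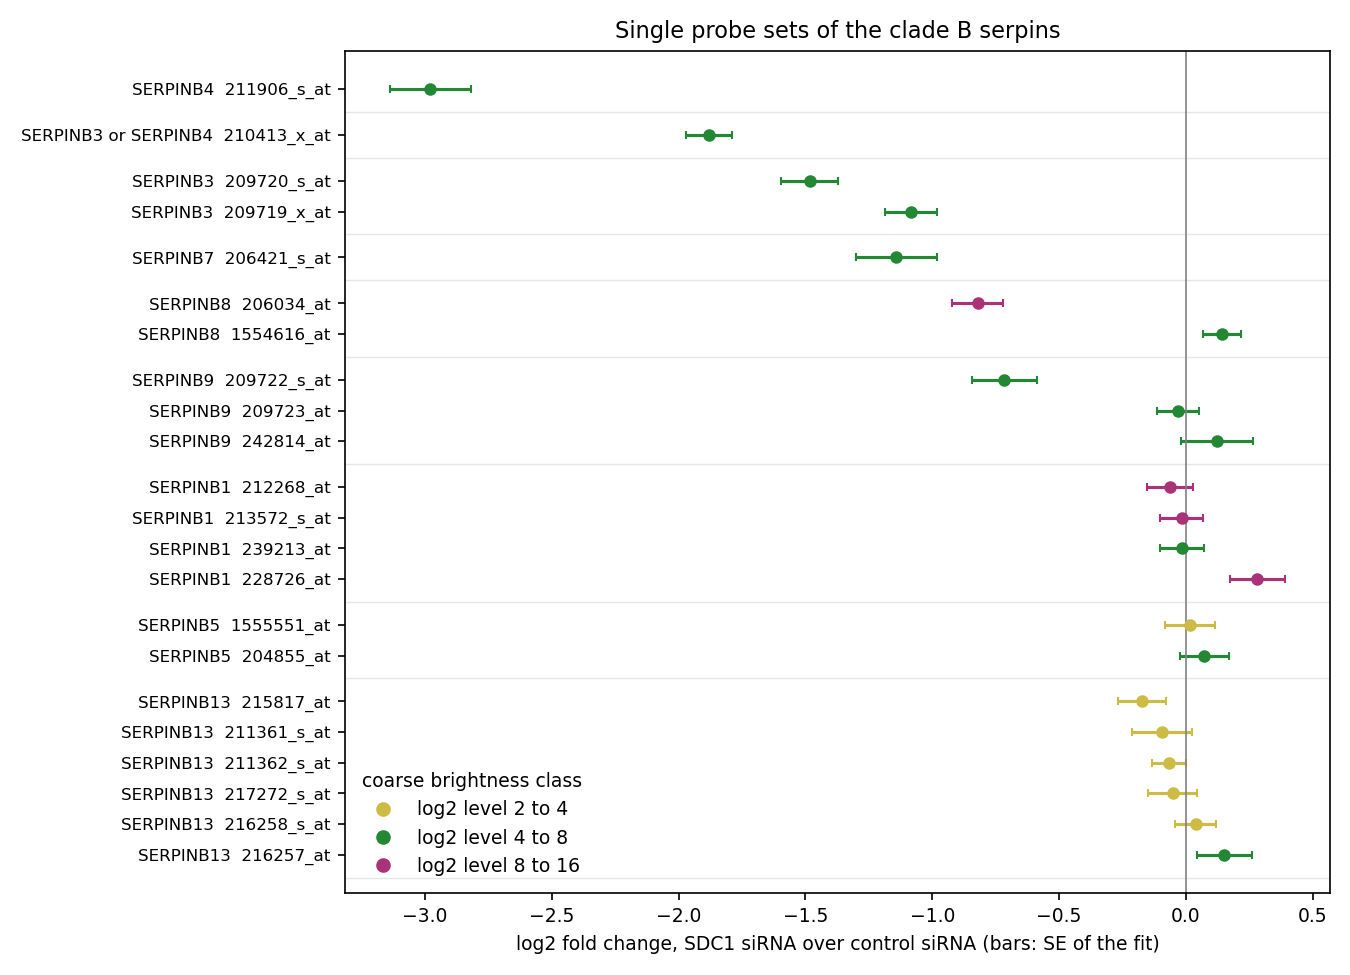
Log2 fold change of SDC1 siRNA over control siRNA for each of the 21 single-gene probe sets and for the probe set shared by SERPINB3 and SERPINB4, with bars for the SE and colours for a coarse brightness class read from the values. SERPINB8 and SERPINB9 each hold 1 probe set that fell beside others near 0.

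Counted over the family, 4 of the 8 measured members passed the threshold of the fit across all genes as lower and 0 as higher. Among all 19775 genes 28.1% passed, 15.1% lower and 13.0% higher. In 5 of the 8 members all SDC1 siRNA arrays lay on one side of all control arrays, as in 41.7% of all genes. The median log2 fold change of the measured members was -0.51, beside 0.0045 over all genes. Of single probe sets, 6 of 21 passed as lower and 0 as higher, beside 10.1% and 9.70% of all probe sets. Since the comparison itself was used to choose the list, nothing is read from these counts.

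SDC1 transcript, the target of the siRNA, was at 1.13, 1.32 and 1.09 in control arrays and -1.14, -1.16 and -1.43 in SDC1 siRNA arrays, a log2 fold change of -2.42 (SE 0.097, limma adjusted p = 2.14e-06). Spike-in controls added to the RNA divided the arrays into 2 batches, control replicate 1 with SDC1 siRNA replicates 1 and 2, and the remaining arrays. The labels name no batch. The mesenchymal and cell surface markers VIM, CD44, MSN and LGALS1, fixed as marks of this line, all sat in the brightest class. Of these 4, 3 were lower after SDC1 siRNA, beside 15.1% of all genes, with a median log2 fold change of -0.45. MSN passed narrowly (limma adjusted p = 0.0419). In the limma fit over probe sets its bright probe set gave -0.27 (adjusted p = 0.0716) and its dimmer probe set 0.25 (adjusted p = 0.0623). Of the markers expected to be low, ESR1, ERBB2 and CDH1 were in the brightest class too, so the coarse classes cannot show that a marker is absent. CDH1, the epithelial cadherin, fell by 0.55 (SE 0.11, limma adjusted p = 0.00683), with -0.17 (adjusted p = 0.361) for its dimmer probe set. Among 11 measured leukocyte, endothelial and fibroblast markers 1 changed, beside 28.1% of all genes. It was CD14, which fell by 0.46 on the log2 scale (SE 0.079, limma adjusted p = 0.00265). The 11 markers ranged from -0.46 to 0.31. Their part in the results was not tested.

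The spread among replicates, which played no part in choosing the family, was wide for some of the members that fell. The standard deviation among SDC1 siRNA arrays was 0.37 for SERPINB7 and 0.35 for SERPINB4, beside a median of 0.081 over all genes. A larger value was found in 0.273% of genes for SERPINB7 and in 0.415% for SERPINB4. It was 0.20 for SERPINB3 and 0.12 for SERPINB8. Most of all genes did not pass the threshold, and wide spreads also occurred in other genes that fell strongly. The same standard deviation was 0.46 for SERPIND1, 0.37 for IL6 and 0.34 for IL1A, while it was 0.12 for ETS1 and 0.11 for CASP1. SDC1 siRNA replicate 3 was the highest of its group in 3 of the 4 members that fell, and in 37.1% of all genes that fell.

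That array is the only SDC1 siRNA array of its spike-in batch. Within the first batch SERPINB7 was at -1.35 and within the second at -0.72, and SERPINB4 at -3.21 and -2.56. SERPINB3 differed little between batches, at -1.51 and -1.52, as did SERPINB8 at -0.75 and -0.77. The part of the batch in the spread of SERPINB7 and SERPINB4 was not tested. Without SDC1 siRNA replicate 3, the log2 fold change of SERPINB7 was -1.35 and that of SERPINB4 -3.18.

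The genes whose values lay closest to those of these members are named here as a description, since likeness on each of the 6 arrays was what chose them. Closeness was taken as the smallest root mean square difference on the log2 scale, and 3 genes were named for each member that changed by more than 1. SERPINB7 was nearest to SGK1, a serum- and glucocorticoid-induced kinase, at 0.069, then to the cytokine IL6 at 0.093 and to EDN1, the precursor of the vasoconstrictor endothelin-1, at 0.10. In SDC1 siRNA replicates 1 to 3 SGK1 read -1.07, -1.07 and -0.33, and IL6 read -1.09, -1.02 and -0.42.

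SERPINB4 was nearest to the chemokine CCL20 at 0.15, followed by the collagenase MMP1 at 0.27 and the antiviral gene IFIT3 at 0.28. CCL20 read -1.97, -1.80 and -1.21 in SDC1 siRNA replicates 1 to 3, and MMP1 read -1.68, -1.57 and -1.02. IFIT3 read -1.31, -1.48 and -1.42. SERPINB3 was nearest to EYS, a gene known from photoreceptors, at 0.094, to the aldo-keto reductase AKR1B10 at 0.095 and to the leukocyte integrin chain ITGB2 at 0.11. The likeness covers 6 arrays and is dominated by the difference between groups.

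**Figure D3:**
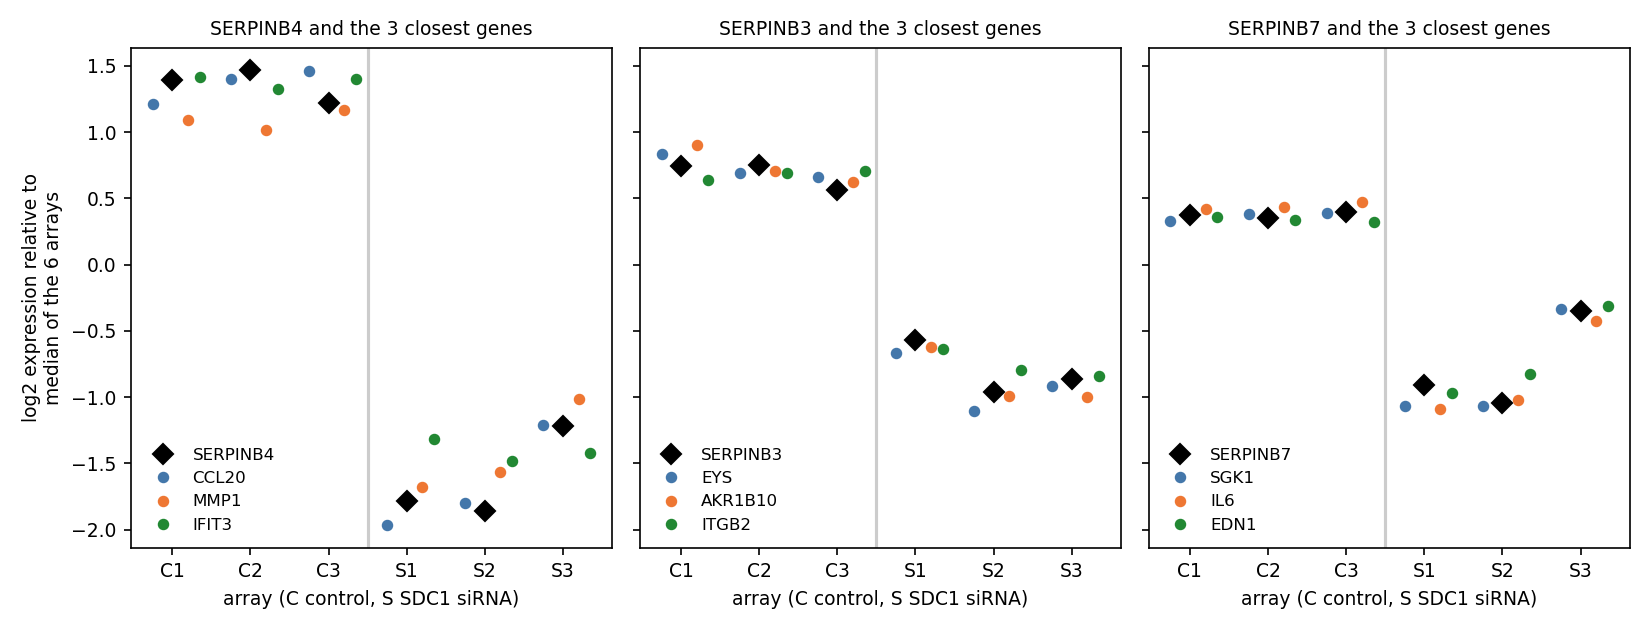
Log2 expression relative to the median of the 6 arrays for SERPINB4, SERPINB3 and SERPINB7 (black diamonds) and the 3 genes closest to each (coloured points, shifted sideways), for control arrays C1 to C3 and SDC1 siRNA arrays S1 to S3. The coloured points lie near the diamonds by the way they were chosen, with root mean square differences from 0.069 for SGK1 to 0.28 for IFIT3.

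Of the measured members 6 lie on chromosome 18, among them the 4 that fell, and 2 on chromosome 6. With 28.1% of all genes called and the members chosen on these differences, nothing is read from that split. In annotated order the chromosome 18 genes run SERPINB5, SERPINB12, SERPINB13, SERPINB4, SERPINB3, SERPINB11, SERPINB7, SERPINB2, SERPINB10 and SERPINB8. SERPINB11, which lies between SERPINB3 and SERPINB7, was at 0.11 (SE 0.089, limma adjusted p = 0.419). SERPINB10, beside SERPINB8, was at -0.03 (SE 0.086, adjusted p = 0.842), and SERPINB12 was at -0.14 (SE 0.079, adjusted p = 0.241). These 3 genes are the clade B serpins outside the list, and none passed the threshold. SERPINB10 and SERPINB11 were each read by 1 probe set in the dimmest class, where a change can be understated.

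Among the 10 nearest measured protein-coding genes around the chromosome 18 cluster, 1 fell and 2 rose, where 15.1% of all genes fell and 13.0% rose, with a median log2 fold change of -0.08. VPS4B, an ATPase of endosomal sorting that lies next to SERPINB5, fell by 0.94 (SE 0.065, limma adjusted p = 2.35e-05). BCL2, the inhibitor of apoptosis, rose by 0.27 (SE 0.072, adjusted p = 0.0231) on its brightest probe set, and its others ranged from -0.07 to 0.30. DSEL, an epimerase-like enzyme of dermatan sulfate, rose by 0.41 (SE 0.13, adjusted p = 0.0478), the mean of probe sets at 0.78 and 0.04. Leaving out either control replicate 1 or 2, or SDC1 siRNA replicate 2 or 3, reduced the 2 rises to 0, and 2 genes passed as lower without control replicate 2.

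Around the chromosome 6 cluster 3 of 10 rose and 1 fell, beside 13.0% and 15.1% of all genes, with a median of 0.07. The forkhead factors FOXQ1 and FOXF2 rose by 1.05 (SE 0.10, limma adjusted p = 0.000147) and 0.81 (SE 0.074, adjusted p = 9.24e-05). The tubulin gene TUBB2B rose by 0.34 (SE 0.069, adjusted p = 0.00594) on a cross-hybridising probe set. PSMG4, a proteasome assembly chaperone, fell by 0.53 (SE 0.076, adjusted p = 0.00111). That value comes from its bright probe set, and its dimmer ones ranged from -0.15 to 0.01. Without SDC1 siRNA replicate 3, 2 of these neighbours passed as lower.

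**Figure D4:**
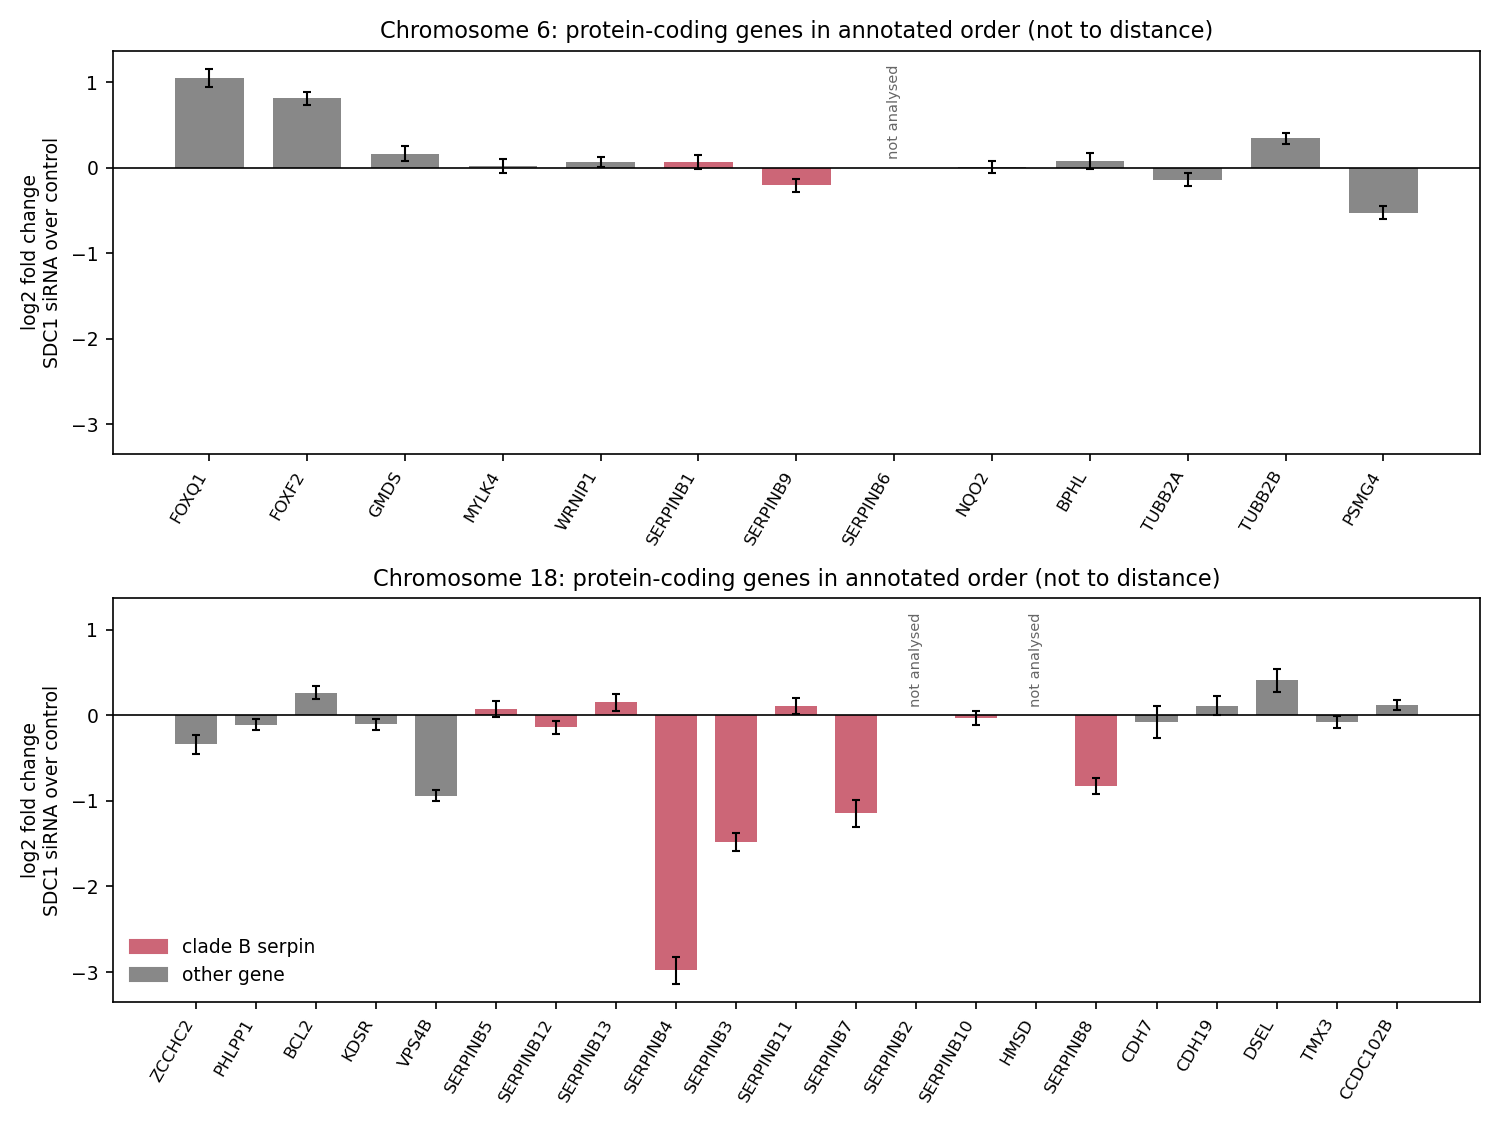
Log2 fold change of SDC1 siRNA over control siRNA (bars, with SE) for the clade B serpins (red) and the 5 nearest measured protein-coding genes on each side (grey), in annotated order and not to distance. SERPINB4, SERPINB3, SERPINB7 and SERPINB8 stand among clade B genes near 0 on chromosome 18, of which SERPINB10 and SERPINB11 are in the dimmest class.

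The promoters of the family were searched on both strands for motifs of factors known to drive its inducible members, in the 250 bases before each start. RefSeq held 15 such windows for the 10 genes, several of them for alternative starts. TGANTCA is a loose form of the site of AP-1 factors, which usually has C or G in the middle. It occurred in 6 of the 15 and in 6.57% of 35116 windows of the same length over all genes. The genes with it were SERPINB2, SERPINB5, SERPINB7, SERPINB8 and SERPINB13, which include members that fell and members that did not pass the threshold. SERPINB2 and SERPINB5 matched only as TGAATCA, with neither C nor G in the middle. SERPINB3 and SERPINB4 had no match to these letters in the window. Stretches around a match of each gene are printed 5′ to 3′ from the plus strand for members on either side of that divide. Capitals mark that match.
SERPINB7: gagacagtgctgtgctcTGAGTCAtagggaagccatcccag
SERPINB8: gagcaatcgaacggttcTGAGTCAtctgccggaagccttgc
SERPINB13: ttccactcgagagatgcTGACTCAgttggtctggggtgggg
SERPINB5: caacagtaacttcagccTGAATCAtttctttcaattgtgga
These lie at chr18:63775362-63775402, chr18:63970036-63970076, chr18:63587239-63587279 and chr18:63476795-63476835 (GRCh38.p14), in that order. The printed match of SERPINB8 began 28 bases before its start and that of SERPINB7 39 bases before a start. Those of SERPINB13 and SERPINB5 began 87 and 146 bases before theirs. SERPINB8 also held TGAATCA, the letters printed for SERPINB5, 185 bases before its start. SERPINB7 also held TGATTCA at 154 and 206 bases and TGAGTCA at 45 bases before a start.

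TTCNNNGAA, the site of STAT factors, was found in windows of SERPINB1, SERPINB7 and SERPINB8, 3 of 15, and in 6.57% of all windows. The core of the interferon-stimulated response element was in 0 of 15 and in 3.02% of all. TATAAA was in windows of SERPINB2, SERPINB7, SERPINB8 and SERPINB9, 4 of 15, and in 10.7% of all. A match describes the letters and is no evidence of binding.

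Of 22 measured genes known to induce or drive clade B serpins, 11 fell and 5 rose, beside 15.1% and 13.0% of all genes, with a median log2 fold change of -0.25. This list and those below were drawn up with earlier results of these data known, so nothing is read from their counts. Among the interleukins, strong inducers of inflammatory genes, IL1A fell by 2.41 (SE 0.15, limma adjusted p = 1.37e-05) and IL1B fell by 1.97 (SE 0.14, adjusted p = 2.51e-05). A dimmer IL1A probe set gave 0.21 (adjusted p = 0.176). The transcription factor ETS1 fell by 1.69 (SE 0.088, adjusted p = 5.83e-06), with -0.16 (adjusted p = 0.396) for its dimmer probe set, and ATF2, a partner of AP-1 factors, rose by 1.40 (SE 0.075, adjusted p = 6.24e-06), with 0.56 and 0.02 for its dimmer probe sets.

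Further genes of that list are named for their known role after their values were seen. STAT6, through which interleukin-4 and interleukin-13 induce SERPINB3 and SERPINB4, fell by 0.40 (SE 0.069, limma adjusted p = 0.00286). The receptor chains IL4R and IL13RA1 fell by 0.45 and 0.50. STAT3 was at 0.17 (adjusted p = 0.0602). Among AP-1 genes JUN rose by 0.67 and JUNB fell by 0.32, while FOS was at -0.12 (adjusted p = 0.427) and FOSL1 at -0.02 (adjusted p = 0.921). The ETS-family genes ELF3 and SPDEF rose by 0.48 and 0.36. IL6, NFE2L2 and RELA were at -1.29, -0.49 and -0.40, and EGR1 was at 0.52. The part of any of these genes in the values of SERPINB3, SERPINB4 and the other members was not tested.

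Among 25 measured proteases that clade B serpins inhibit or that act beside them 9 fell and 2 rose, again beside 15.1% and 13.0% of all genes, with a median of -0.02. CASP1 and CASP4, inflammatory caspases, fell by 1.57 (SE 0.073, limma adjusted p = 3.60e-06) and 0.78 (SE 0.064, adjusted p = 5.93e-05). A dimmer probe set of CASP1 gave -0.07 (adjusted p = 0.696). Its dimmer cross-hybridising probe sets were at -1.23 and -1.05 (adjusted p = 4.64e-05 and 3.11e-05). The dimmer probe set of CASP4 gave -0.34 (adjusted p = 0.106). The lysosomal cathepsin CTSS fell by 0.92 (SE 0.077, adjusted p = 6.26e-05), and the urokinase PLAU, the target of SERPINB2, fell by 0.81 (SE 0.062, adjusted p = 3.92e-05).

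For the partners of single members, named after their values were seen, CTSL and CTSK, targets of SERPINB3 and SERPINB13, fell by 0.53 and 0.49. FURIN, the target of SERPINB8, fell by 0.48 (limma adjusted p = 0.00215). CTSG, the target of SERPINB4 and SERPINB1, was at 0.03 (adjusted p = 0.827), and ELANE and PRTN3, further targets of SERPINB1, were at 0.08 and 0.06 (adjusted p = 0.536 and 0.796). ELANE and PRTN3 sat in the dimmest class, so a change in them could be understated. GZMB, the target of SERPINB9, was at -0.11 (adjusted p = 0.246). The 2 genes that rose were PLAT, the tissue plasminogen activator, by 0.57, and the cathepsin CTSF by 0.41.

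Serpins of other clades, most of them secreted, had 2 of 19 lower and 2 higher, with a median of -0.0025. Of all genes, 15.1% were lower and 13.0% higher. SERPIND1, the thrombin inhibitor heparin cofactor II, read 1.33, 1.32 and 1.23 in control arrays and -1.39, -1.23 and -2.09 in SDC1 siRNA arrays. It fell by 2.86 (SE 0.19, limma adjusted p = 2.09e-05), while SERPINI1, or neuroserpin, fell by 0.55 (SE 0.090, adjusted p = 0.00216). SERPINE2, or protease nexin-1, rose by 0.27 (SE 0.065, adjusted p = 0.0134) and SERPINA7, the thyroxine carrier, rose by 0.26 (SE 0.071, adjusted p = 0.0238). A dimmer SERPINE2 probe set gave 0.04 (adjusted p = 0.815). The 2 rises became 0 without SDC1 siRNA replicate 1 and 1 without control replicate 1, control replicate 2 or SDC1 siRNA replicate 2.

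Protease inhibitors of other families had 6 of 15 lower and 0 higher, where 15.1% and 13.0% of all genes were, with a median of -0.21. PI3, the elastase inhibitor elafin, fell by 1.71 (SE 0.14, limma adjusted p = 6.23e-05) and SLPI, the secretory leukocyte protease inhibitor, by 1.06 (SE 0.079, adjusted p = 3.48e-05). TFPI, which restrains tissue factor, fell by 0.61 (SE 0.069, adjusted p = 0.000297). XIAP, an inhibitor of caspases, fell by 0.34 (SE 0.062, adjusted p = 0.00362), although single probe sets ranged from -0.52 to 0.16.

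Squamous differentiation genes, whose tissue is the usual home of SERPINB3, SERPINB4 and SERPINB13, had 0 of 16 lower and 2 higher, with a median of -0.02, and the share of all genes was 15.1% lower and 13.0% higher. FLG, encoding filaggrin, rose by 0.69 (SE 0.10, limma adjusted p = 0.00109) and CNFN, encoding cornifelin, by 0.71 (SE 0.17, adjusted p = 0.0127). IVL, encoding involucrin of the cornified envelope, was at -0.14 (adjusted p = 0.59), and was named after its value was seen. Of this list only FLG and CNFN sat in the brightest class. IVL was in the dimmest, where a change can be understated.

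**Figure D5:**
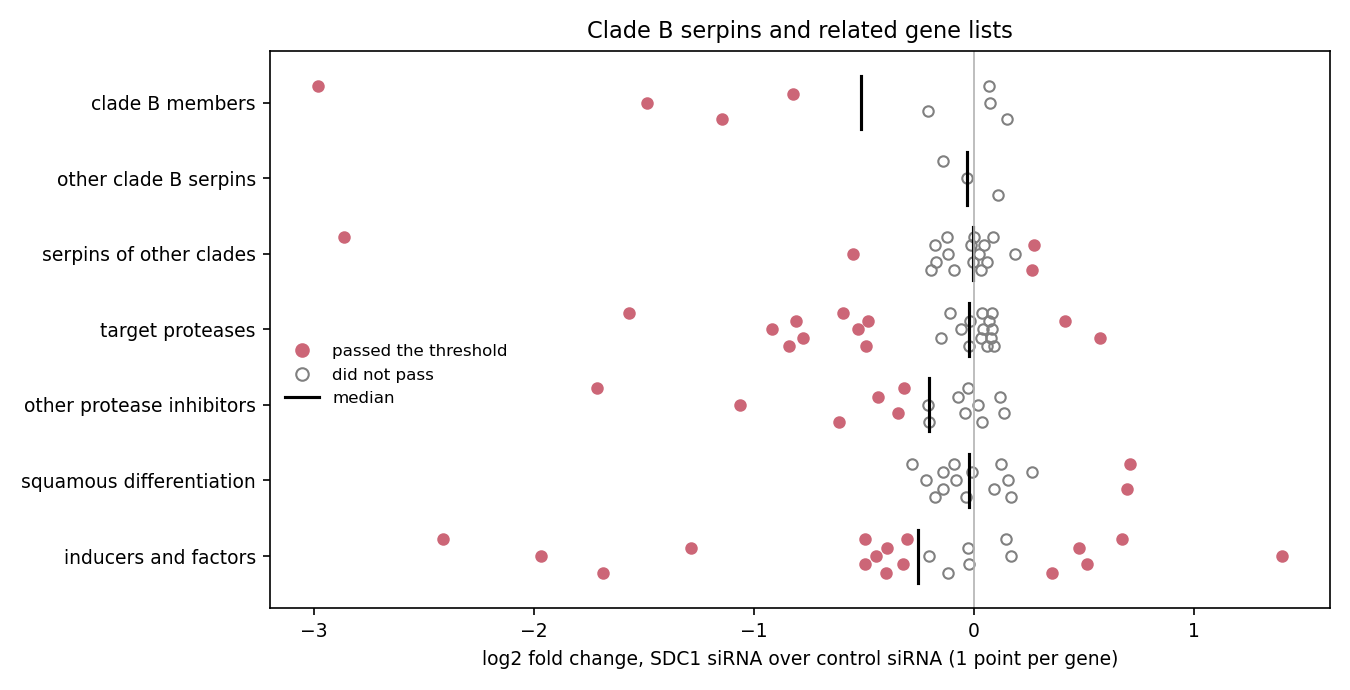
Log2 fold change of SDC1 siRNA over control siRNA for each measured gene of the clade B family and of the related lists (filled points passed the threshold over all genes, open points did not, lines are medians). The known inducers and factors spread from -2.41 to 1.40 and the squamous differentiation genes from -0.28 to 0.71. The family was chosen on this comparison, so its line at -0.51 is not compared with the others.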

How the data were processed

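Deposited values are log2 expression, made by the authors with RMA (robust multi-array average, no version), per the submitters' processing notes. The values show that each probe set was centred on its median over the 6 arrays, to within 5e-07, so neither levels nor detection can be read.

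Of 54675 probe sets, 41097 carry 1 gene in the platform annotation, 1801 several and 11777 none. Brightness classes (log2 level 2 to 4, 4 to 8 or 8 to 16) were inferred from the rounding step of the upper 3 arrays. They are coarse: in 16.1% of the brightest class that step was coarser than the level predicts. Genes were summarised as the mean over probe sets of their brightest class, without _x_at probe sets where others existed. Symbols and promoters came from RefSeq (GRCh38.p14).

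Groups were compared with limma 3.58.1 (R 4.3.3; 2-sided, no covariates) over 19775 genes, and over 54613 probe sets for single probe sets, with Benjamini-Hochberg adjustment at 0.05. The code was tested on simulated data. The number of arrays limits precision (median SE 0.075).

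Members and lists were chosen with earlier results of these data known, so nothing is read from their counts. Named genes are SDC1, all members, up to 4 of each list by lowest p among those called, lists of 3 or fewer in full, and the 3 genes closest to each member that changed by more than 1. Alternatives varied the probe sets, normalization, dim genes, variance prior, replicate block, spike-in batch and arrays. Listed genes lacking a single-gene probe set were not analysed here.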

Additional observations from a re-analysis of the deposited data

How the results depend on the processing

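Across 17 alternative settings 4 members passed the threshold as lower in all but 2, and 0 as higher in each. Leaving out each array in turn gave 4 and 0 throughout. The exceptions among the settings had 5 lower. In the first, single probe sets were read by largest change per gene and SERPINB9 was at -0.72. In the second, the replicate number was a block and SERPINB9 was at -0.21. Of all 19775 genes, 2985 passed as lower in the main fit, 3144 under the first of these settings and 2912 under the second. Since the comparison chose the members, nothing is read from their counts. The number of all genes called was 5552, between 4472 and 5048 with an array left out, 2650 within the first spike-in batch and 1839 within the second. These batches hold fewer arrays.

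Members near 0 changed sign. SERPINB1 was at -0.046 within the second batch. SERPINB5 was at -0.064 there, and between -0.026 (without control replicate 1) and 0.15 with an array left out. SERPINB13 was at -0.033 both when all its probe sets were averaged and when classes were read on all 6 arrays, and at -0.17 on its probe set of largest change. The log2 fold changes ranged from -3.18 to -2.86 for SERPINB4, -1.60 to -1.40 for SERPINB3, -1.35 to -1.0 for SERPINB7 and -0.88 to -0.74 for SERPINB8 when each array was left out. Quantile normalization gave smaller falls of SERPINB4 and SERPINB3, at -2.54 and -1.37, while SERPINB7 and SERPINB8 stayed within these ranges. With all its probe sets averaged SERPINB3 was at -1.28. SERPINB8 was at -0.34 when all its probe sets were averaged and when classes were read on all 6 arrays. The bright and dimmer labels of the probe sets of SERPINB5, SERPINB8 and SERPINB13 thus did not hold when classes were read on all 6 arrays.

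With the replicate block 5431 genes passed. The labels do not say that a number marks a shared culture or day. Deviations of same-numbered arrays correlated between 0.014 and 0.098, under a set limit of 0.1, and the numbers were not taken as pairs. Of the 6 arrays 5 correlated best with their own number, so whether the numbers mark pairs remains undecided. Brightness classes cannot show whether a dim probe set, such as those of SERPINB13, measured its transcript.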
